A study of Homo sapiens with 6 samples.

Results

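The miR-17, miR-18 and miR-19 seed families were followed in MDA-MB-231 cells, an estrogen-independent human breast adenocarcinoma line, grown as spheroids or as the parental monolayer. They were taken as each mature sequence listed under the stem-loops mir-17, mir-18a, mir-18b, mir-19a, mir-19b, mir-20a, mir-20b, mir-93, mir-106a or mir-106b, with both arms and numbered copies included. This gave 15 of the 436 mature sequences with a read, from 9 of the 10 stem-loops. The remaining stem-loop, mir-18b, had none. All 15 sequences were listed for spheroid cells and 13 for parental cells, and 9 of the 15 had at least 100 reads over both tables.

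Spheroid cells were grown in suspension without serum (3 samples), and parental cells were grown attached to culture flasks with serum (3 samples). Both were MDA-MB-231 cells, a single line, kept in a humidified CO2 incubator. Small RNA was sequenced from both, and 1 table of read counts per mature sequence was deposited for each condition. The table of spheroid cells held 1553014 reads and that of parental cells held 539798, so the spheroid table was 2.88 times as deep. The study itself reports more reads matched to known miRNAs (miRBase) for parental than for spheroid cells. The parental table holds only a small part of the parental number, and the spheroid table nearly all of its own. How the parental reads in the table were chosen is not stated. With no column per sample there was no replicate error, and the sources do not settle which of the 3 samples each table covers. Reads of each miRNA are therefore scaled to 1000000 reads of its own table (rpm), and each fold is spheroid over parental. Because each read spans a whole miRNA, no correction for length was made. Kal's Z-test, which compares a pair of proportions, was applied with Benjamini-Hochberg adjustment over the 436 sequences, and a call needed both an adjusted p below 0.05 and a difference of more than 2-fold. A call speaks of the reads in these tables and not of the conditions. The 95% intervals of levels, folds and shares are Clopper-Pearson intervals, and those of ratios of ratios are conditional exact intervals. With no column per sample they cover the counting error of reads only. PCR copies of a molecule were not marked and could not be set apart.

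The miRNAs that mark basal and mesenchymal-like breast cancer cells were present for 6 of 6 stem-loops, with a summed level of 310308 rpm in spheroid cells and 343855 rpm in parental cells and 2 of 12 sequences called lower. The 8 markers listed for luminal epithelium summed to 170 rpm in spheroid cells and 130 rpm in parental cells. That list holds mir-205, which the study ties to basal-like breast cancer. Of the endothelial marker mir-126, 2 of 2 sequences were called higher, with 264 rpm in spheroid cells against 63.0 rpm in parental cells, and of 8 fibroblast and mural sequences 2 were called higher, at 361 against 122 rpm summed. Of 6 blood markers 2 (mir-451a and mir-223) were unlisted. The other 4 summed to 22455 rpm in spheroid cells and 17536 rpm in parental cells over 5 sequences, with 0 called. That level was taken as a sum only, so it may rest on few of the 5 sequences. It is not read here as a share of blood cells. Of 4 muscle markers 3 were unlisted, with 9.01 rpm in spheroid cells and 0 in parental cells. Whether cells of other types had a part in the values below was not tested, and in such bulk samples fewer cells of a type and less RNA per cell cannot be told apart.

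A miRNA guides the silencing complex to messenger RNAs mainly through its seed, the bases near the 5′ end that pair with the target. The miR-17, miR-18 and miR-19 families are encoded together in the mir-17-92 cluster, known as an oncogenic cluster that the transcription factor MYC activates, and in its paralog mir-106a-363. The paralog mir-106b-25 encodes members of the miR-17 family alone among them. Members with the miR-17 seed are known to repress the cell cycle inhibitor CDKN1A, and miR-18a the estrogen receptor gene ESR1.

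The sequences that define the families are given as listed in the tables, written 5′ to 3′ as RNA, with the seed (bases 2 to 8) in capitals. The first 6 share the miR-17 seed, the next holds the miR-18 seed and the last 2 share the miR-19 seed.
miR-17-5p: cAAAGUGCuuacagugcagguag
miR-20a-5p: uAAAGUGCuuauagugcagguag
miR-93-5p: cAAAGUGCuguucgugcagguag
miR-106b-5p: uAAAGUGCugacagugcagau
miR-106a-5p: aAAAGUGCuuacagugcagguag
miR-20b-5p: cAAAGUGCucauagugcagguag
miR-18a-5p: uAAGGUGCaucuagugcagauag
miR-19a-3p: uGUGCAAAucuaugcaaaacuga
miR-19b-3p: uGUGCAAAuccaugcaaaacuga

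Outside the seed the miR-17 relatives differ at few positions, counted from 1 at the 5′ end. Relative to miR-17-5p, miR-106a-5p carries C1A, miR-20a-5p carries C1U and C12U, and miR-20b-5p carries U10C and C12U. The miR-93-5p sequence carries U10G, A11U, C12U and A13C relative to miR-17-5p. The miR-18a-5p sequence differs from miR-20a-5p by A4G inside the seed, and by U9A, A11C and G20A outside it. The miR-19 pair differs by U11C, read from miR-19a-3p to miR-19b-3p. No other sequence in the tables held one of these 3 seeds, and none was listed under mir-302, mir-372, mir-373, mir-519d, mir-520 or mir-526b, families that carry the miR-17 seed or one offset from it.

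The stem-loops lie in 3 clusters of the human genome (GRCh37). The mir-17-92 cluster spans chr13:92002859-92003645 on the plus strand with the stem-loops in the order mir-17, mir-18a, mir-19a, mir-20a, mir-19b-1 and mir-92a-1, inside the long noncoding RNA gene MIR17HG. Its 5 member stem-loops are exonic in 3 of the 16 annotated transcripts. The mir-106a-363 cluster spans chrX:133303408-133304308 on the minus strand with mir-106a, mir-18b, mir-20b, mir-19b-2, mir-92a-2 and mir-363, in an exon of 3 of 3 transcripts of an unnamed long noncoding RNA. The mir-106b-25 cluster spans chr7:99691183-99691697 on the minus strand with mir-106b, mir-93 and mir-25 inside MCM7, a gene of the DNA replication helicase. There mir-106b is intronic, while mir-93 overlaps an exon in 1 of 13 transcripts. The mature miR-19b-3p sequence is encoded at 2 places, chr13:92003499-92003521 and chrX:133303713-133303735, so its reads cannot be told apart by locus.

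The members formed a small part of both miRNA pools, and 1 of the 15 was called between the tables. The 15 sequences summed to 8533 reads in spheroid cells, 0.549% of the table, and 3822 reads in parental cells, 0.708%. The miR-18a-5p sequence was called lower, against 8.94% of all 436 sequences called lower, and none of the 15 was called higher, against 4.82% of all sequences. Among the 9 members with at least 100 reads the fold was below 1 in 8, and the interval of the fold lay below 1 in 5 and above 1 in none. Their median log2 fold was -0.43, beside -0.11 over all 183 sequences with as many reads, of which 106 had a fold below 1. These folds are relative to the table totals. TMM and median-of-ratios factors raised each log2 fold by 0.16 and 0.20. They gave 28 higher with 30 lower calls and 29 higher with 28 lower calls over all sequences, beside 21 higher and 39 lower with the table totals. Scaled instead to the reads left after trimming in each condition, miRNA or not, each log2 fold was raised by 1.14 and 8 of these 9 members lay above 1. That scale is unsound here, because the parental table holds only a small part of the parental miRNA reads that the study reports. The spheroid table holds nearly all of its own. Folds on that scale are given as computed and show no direction. Directions given for single members hold only relative to the table totals.

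**Figure D1:**
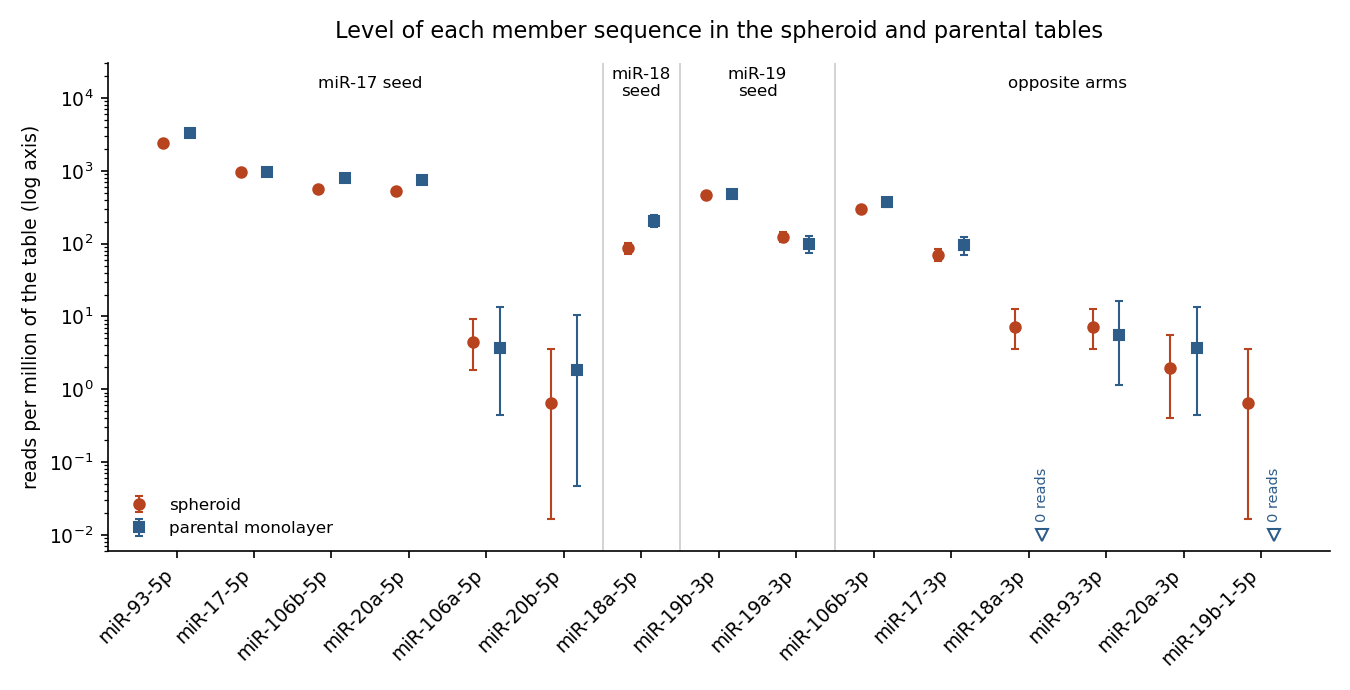
Level of each of the 15 member sequences in rpm of its table (log axis), grouped by seed family and with the opposite arms on the right. Circles are spheroid cells, squares are parental monolayer cells, bars are 95% counting intervals, and open triangles mark 0 reads. The gap between the conditions is clear for miR-93-5p and miR-18a-5p, while 6 sequences lie near or below 10 rpm.

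The miR-17 seed family made up most of the members' reads, and its sum was lower in spheroid cells relative to the table totals, though not past the threshold. Scaled to the reads left after trimming its fold was computed as 1.68, which shows no direction for the reason given above. The 6 sequences with this seed summed to 6884 reads (4433 rpm) in spheroid cells and 3145 reads (5826 rpm) in parental cells, a fold of 0.761 (95% interval 0.729 to 0.794). The order within the family was the same in both tables, with miR-93-5p first and then miR-17-5p, miR-106b-5p and miR-20a-5p. The share of miR-93-5p in the family was 53.9% in spheroid cells and 56.9% in parental cells. The share of miR-17-5p was 21.5% (20.5 to 22.5) in spheroid cells and 16.5% (15.3 to 17.9) in parental cells, intervals that did not overlap.

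The most abundant member, miR-93-5p, a repressor of CDKN1A from the MCM7 locus, had 3709 reads (2388 rpm) in spheroid cells and 1789 reads (3314 rpm) in parental cells. Its fold was 0.721 (0.681 to 0.763), with an adjusted p of 2.67e-29 by Kal's Z-test, so it differed beyond counting error but did not reach the fold threshold. It ranked 46 among the sequences of the spheroid table and 38 in the parental table. In the study's own list, mir-93 stands among the miRNAs lower in spheroid cells by more than 2-fold, with no arm named. Its neighbour in MCM7, miR-106b-5p, had 870 reads (560 rpm) in spheroid cells and 428 reads (793 rpm) in parental cells, a fold of 0.707 (0.629 to 0.795). On chromosome 13, miR-20a-5p had 817 reads (526 rpm) in spheroid cells and 405 reads (750 rpm) in parental cells, a fold of 0.701 (0.622 to 0.792). The folds of miR-93-5p, miR-106b-5p and miR-20a-5p thus lay within each other's intervals, although these miRNAs come from different chromosomes.

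The founding member, miR-17-5p, had 1480 reads (953 rpm) in spheroid cells and 520 reads (963 rpm) in parental cells. Its fold was 0.989 (0.895 to 1.10), with an adjusted p of 0.886 by Kal's Z-test, and under TMM and median-of-ratios factors it was 1.11 and 1.14. It therefore stood apart from its seed relatives. The ratio of miR-93-5p to miR-17-5p reads was 2.51 in spheroid cells and 3.44 in parental cells, and the ratio of these ratios was 0.728 (0.648 to 0.818). For miR-20a-5p to miR-17-5p it was 0.709 (0.605 to 0.831), although both are cut from the same primary transcript. Such ratios within a table do not depend on the scale between the tables. By Fisher's exact test, with adjustment over 435 sequences, 4 of 8 members had a ratio to miR-17-5p that differed between the tables (miR-93-5p, miR-106b-5p, miR-20a-5p and miR-18a-5p), beside 31.7% of all sequences. The 435 include many sequences with few reads, so the 31.7% is not a background at the depth of these 4 members. With an assumed coefficient of variation of 0.2 none of the 4 was called. Over exact reads alone the ratio for miR-106b-5p turned round and that for miR-18a-5p was not called.

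The change that passed the threshold was in miR-18a-5p (chr13:92003010-92003032), the only sequence with the miR-18 seed in these tables. It had 135 reads (86.9 rpm) in spheroid cells and 110 reads (204 rpm) in parental cells, a fold of 0.427 (0.329 to 0.554), with an adjusted p of 5.56e-11 by Kal's Z-test. Its rank was 155 in the spheroid table and 122 in the parental table. In the study's own list, mir-18a stands among the miRNAs lower in spheroid cells by more than 2-fold, with no arm named. The other miR-18 stem-loop, mir-18b, had no read assigned in either table, and a count of 0 is read here as at most 3 reads, or 1.93 rpm in spheroid cells and 5.56 rpm in parental cells. Over all reads the fold of miR-18a-5p was lower than those of its neighbours in the cluster. Its ratio to miR-17-5p was 0.0912 in spheroid cells and 0.212 in parental cells, a ratio of ratios of 0.431 (0.326 to 0.571) with an adjusted p of 2.82e-08 by Fisher's exact test. Over exact reads alone it was 0.666 (0.421 to 1.06) and was not called (adjusted p = 0.168, Fisher's exact test). Relative to miR-20a-5p the ratio of ratios was 0.608 (0.456 to 0.813), and relative to miR-19a-3p, encoded next to it, 0.339 (0.223 to 0.512). With an assumed coefficient of variation of 0.2 between cultures, the call of miR-18a-5p was lost (adjusted p = 0.104, edgeR's exact test).

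The miR-19 seed family did not share in the decrease. Summed, miR-19a-3p and miR-19b-3p had 917 reads (590 rpm) in spheroid cells and 310 reads (574 rpm) in parental cells, a fold of 1.03 (0.903 to 1.17). The miR-19b-3p sequence, encoded at both loci, had 725 reads (467 rpm) in spheroid cells and 257 reads (476 rpm) in parental cells, a fold of 0.981 (0.849 to 1.13) that lay above 1, at 1.10 and 1.13, under TMM and median-of-ratios factors. The miR-19a-3p sequence had 192 reads (124 rpm) in spheroid cells and 53 reads (98.2 rpm) in parental cells, a fold of 1.26 (0.925 to 1.74) with an adjusted p of 0.276 by Kal's Z-test. The study's qRT-PCR used miR-19 among its endogenous controls. The ratio of miR-20a-5p to miR-19b-3p was 1.13 in spheroid cells and 1.58 in parental cells, a ratio of ratios of 0.715 (0.591 to 0.864), and miR-19a-3p to miR-19b-3p gave 1.28 (0.910 to 1.83).

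Reads that could be placed in the X-linked cluster were at most a handful. The miR-106a-5p sequence had 7 reads in spheroid cells and 2 in parental cells, and miR-20b-5p had 1 read in each. None of these 11 reads was exact or counted as unique, and miR-106a-5p matches miR-17-5p at 22 of 23 positions. Neither mir-18b nor mir-363 was listed. Of the miR-19b-3p reads, 26 of 725 in spheroid cells and 15 of 257 in parental cells were counted as unique. Expression from chromosome X was therefore not detectable in these tables apart from what its copies of miR-19b and miR-92a may give.

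**Figure D2:**
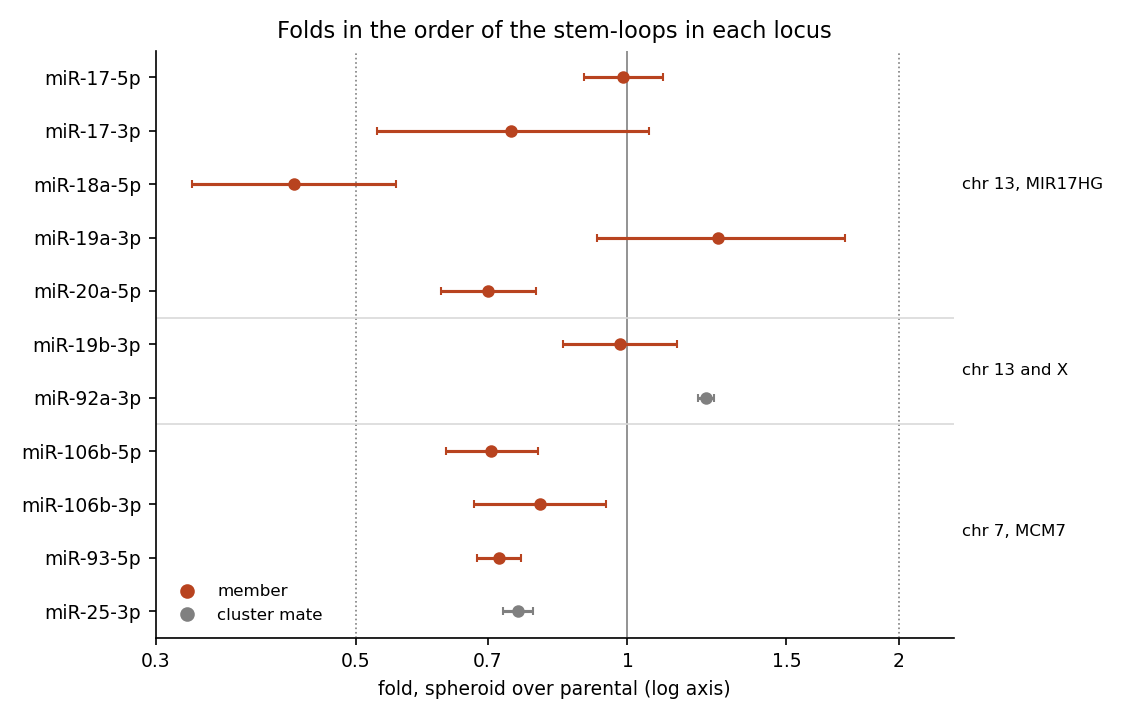
Fold, spheroid over parental, of the members with at least 100 reads (red) and of their cluster mates miR-92a-3p and miR-25-3p (grey), in the order of the stem-loops in each locus. The axis is logarithmic, bars are 95% counting intervals and dotted lines mark folds of 0.5 and 2. The 3 guides from MCM7 lie between 0.707 and 0.757, while those of chromosome 13 run between 0.427 and 1.26.

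By locus and over all reads, the guides from MCM7 had like folds and those of chromosome 13 did not. Counted by form of read, the MCM7 guides differed too, with exact reads of miR-93-5p at 0.470 (0.425 to 0.521) and those of miR-106b-5p at 0.789 (0.672 to 0.927). The 4 member sequences of chromosome 7 summed to 5052 reads in spheroid cells and 2421 in parental cells, a fold of 0.725 (0.691 to 0.762). Their cluster mate miR-25-3p, with another seed, had 5303 rpm in spheroid cells and 7008 rpm in parental cells, a fold of 0.757 (0.728 to 0.787). The ratio of miR-93-5p to miR-106b-5p was 4.26 in spheroid cells and 4.18 in parental cells, a ratio of ratios of 1.02 (0.894 to 1.16). For miR-93-5p to miR-25-3p the ratio of ratios was 0.952 (0.889 to 1.02). The 8 sequences that map to chromosome 13 alone summed to 2748 reads in spheroid cells and 1141 in parental cells, a fold of 0.837 (0.781 to 0.898). Among the guides of that locus with at least 100 reads the folds ran from 0.427 for miR-18a-5p to 1.26 for miR-19a-3p, and their intervals did not overlap. The cluster mate miR-92a-3p had 26454 rpm in spheroid cells and 21628 rpm in parental cells, a fold of 1.22 (1.20 to 1.25), and was 27.8 times as abundant as miR-17-5p in spheroid cells and 22.5 times in parental cells.

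The opposite arm of each stem-loop was far below the guide in most cases, and mir-106b was the member with 2 abundant arms. The mir-106b and mir-18a stem-loops are shown from RefSeq (GRCh38.p14) because their arms carry the results that follow, with both mature arms in capitals. The mir-106b stem-loop lies at chr7:100093993-100094074 on the minus strand and mir-18a at chr13:91350751-91350821 on the plus strand in that build.
mir-106b: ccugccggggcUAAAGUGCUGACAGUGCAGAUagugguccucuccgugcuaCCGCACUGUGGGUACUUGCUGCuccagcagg
mir-18a: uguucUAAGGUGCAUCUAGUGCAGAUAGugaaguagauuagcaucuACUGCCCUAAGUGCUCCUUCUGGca

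The 3′ arm, miR-106b-3p, had 462 reads (297 rpm) in spheroid cells and 201 reads (372 rpm) in parental cells, a fold of 0.799 (0.676 to 0.948) with an adjusted p of 0.0221 by Kal's Z-test. It made up 34.7% (32.1 to 37.3) of the mir-106b reads in spheroid cells and 32.0% (28.3 to 35.8) in parental cells, so the balance of the arms did not differ beyond counting error. For mir-17 the 3′ arm held 109 reads, 6.86% of the stem-loop's reads, in spheroid cells and 51 reads, 8.93%, in parental cells. The fold of miR-17-3p was 0.743 (0.528 to 1.06).

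For mir-18a the arms differed between the tables. The 3′ arm miR-18a-3p had 11 of 146 mir-18a reads, 7.53% (3.82 to 13.1), in spheroid cells and 0 of 110 in parental cells, where a count of 0 allows up to 2.73% as 3 reads, or 3.30% by the Clopper-Pearson limit. By Fisher's exact test this was called with an adjusted p of 0.0257 over 141 stem-loops, of which 12.1% were called. It was the only one of 6 member stem-loops with that call, which was lost in exact reads alone (adjusted p = 0.902, Fisher's exact test). The level of miR-18a-3p was 7.08 rpm in spheroid cells, at least 1.27-fold higher than a floor of 3 reads in parental cells before the counting error of its own 11 reads (3.54 to 12.7 rpm), and was not called by Kal's Z-test (adjusted p = 0.121). The 3′ arms of mir-93 and mir-20a and the 5′ arm of mir-19b-1 had at most 11 reads in a table.

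Members of the miR-17 family also differed between the tables in the form of their reads. Exact reads, which match the annotated mature form from end to end, accounted for 32.7% of the spheroid table and 34.9% of the parental table, and all other reads are variants. For miR-17-5p, 413 of 1480 reads were exact in spheroid cells, 27.9% (25.6 to 30.3), and 242 of 520 in parental cells, 46.5% (42.2 to 50.9). For miR-20a-5p the exact share was 31.2% (28.0 to 34.5) in spheroid cells and 49.9% (44.9 to 54.9) in parental cells. For miR-93-5p it was 24.2% (22.8 to 25.6) in spheroid cells and 37.0% (34.8 to 39.3) in parental cells. The intervals of the conditions did not overlap for any of these miRNAs. By Fisher's exact test, adjusted over 355 sequences with reads in both tables, these 3 of 13 members had a lower exact share in spheroid cells (adjusted p of 4.72e-13, 6.28e-09 and 3.64e-21 in the same order), beside 7.89% of all sequences. None of the 13 was called with a higher share, beside 4.51% of all sequences. Of those 355 sequences, 128 had at least 100 reads in each table. Of the 128, 74 had a lower exact share in spheroid cells, called or not. The 7.89% and 4.51% thus include many sequences with few reads and are not a background at the depth of these 3 members. With adjustment over the 128 alone, a clearly larger part than 7.89% was called lower, and most of those called were not members. The count of 3 members called is therefore not read as setting them apart.

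**Figure D3:**
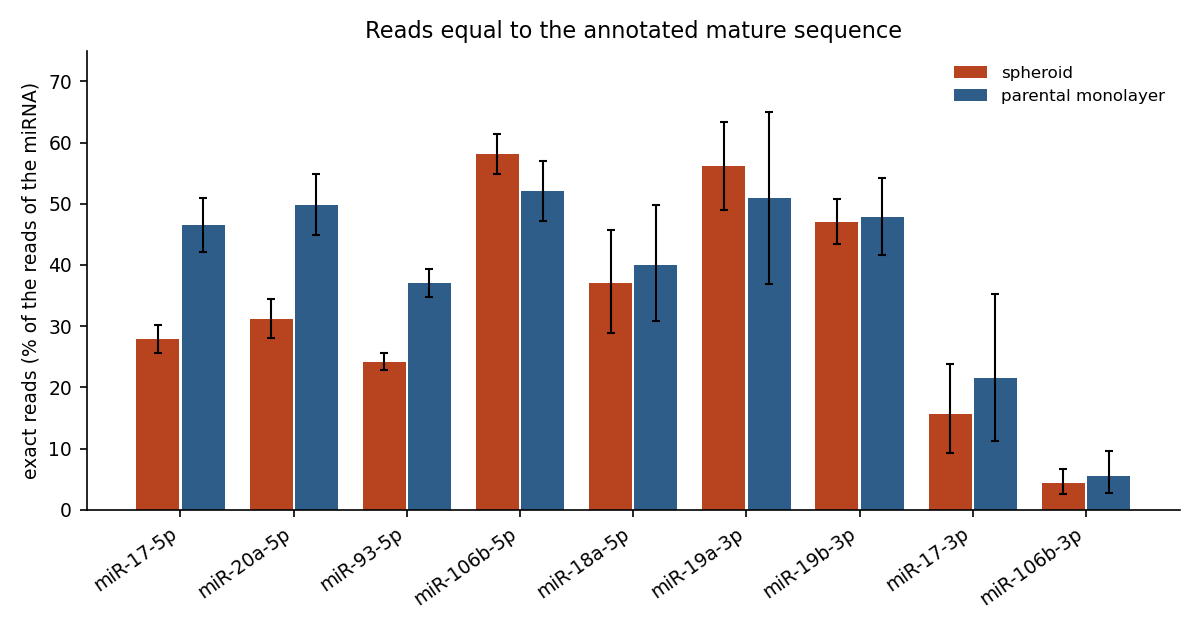
Reads equal to the annotated mature sequence, in % of the reads of that miRNA, for the 9 members with at least 100 reads. Bars on the left of each pair are spheroid cells and bars on the right are parental monolayer cells, with 95% counting intervals. The bars for miR-17-5p, miR-20a-5p and miR-93-5p are 12.8 to 18.7 percentage points lower in spheroid cells, and the intervals overlap for the other 6.

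The remaining guides did not show this. The exact share of miR-106b-5p was 58.2% (54.8 to 61.5) in spheroid cells and 52.1% (47.3 to 56.9) in parental cells, 6.06 percentage points higher, and did not pass the test (adjusted p = 0.251, Fisher's exact test). For miR-18a-5p it was 37.0% in spheroid cells and 40.0% in parental cells, for miR-19a-3p 56.3% and 50.9%, and for miR-19b-3p 47.0% and 47.9%. The opposite arm miR-106b-3p was seldom found in its annotated form, with 4.33% exact reads in spheroid cells and 5.47% in parental cells.

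The 3 members with the lower exact share had the same 3′ end, which in these tables was carried by sequences with the miR-17 seed only. The ending could thus not be followed without the seed. The seed without this annotated ending was found in miR-106b-5p alone, whose exact share was 6.06 percentage points higher in spheroid cells and not called. The 8 final bases GCAGGUAG were shared by miR-17-5p, miR-20a-5p and miR-93-5p, and in the tables also by miR-106a-5p and miR-20b-5p, which had no exact read. The annotated miR-106b-5p is 21 bases long, 2 fewer than miR-17-5p, and the 2 bases that follow it in the stem-loop printed above, ag, are those on which miR-17-5p ends. Of the 128 sequences with at least 100 reads in each table, the exact share of miR-20a-5p and miR-17-5p fell most, by 18.7 and 18.6 percentage points, and that of miR-93-5p ranked 5 with 12.8, while the median difference was -0.59. The 4 sequences of the 128 that end in UAG were miR-17-5p, miR-20a-5p, miR-93-5p and miR-18a-5p. Over the 30 sequences ending in G the median difference was -2.73, or -1.43 without miR-17-5p, miR-20a-5p and miR-93-5p, and it was 0.51 over 28 ending in A, -0.56 over 22 ending in C and -1.09 over 48 ending in U. Over the 25 sequences of 23 bases it was -0.83. No read lengths are listed for the variants, so how they differ from the annotated form was not tested.

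**Figure D4:**
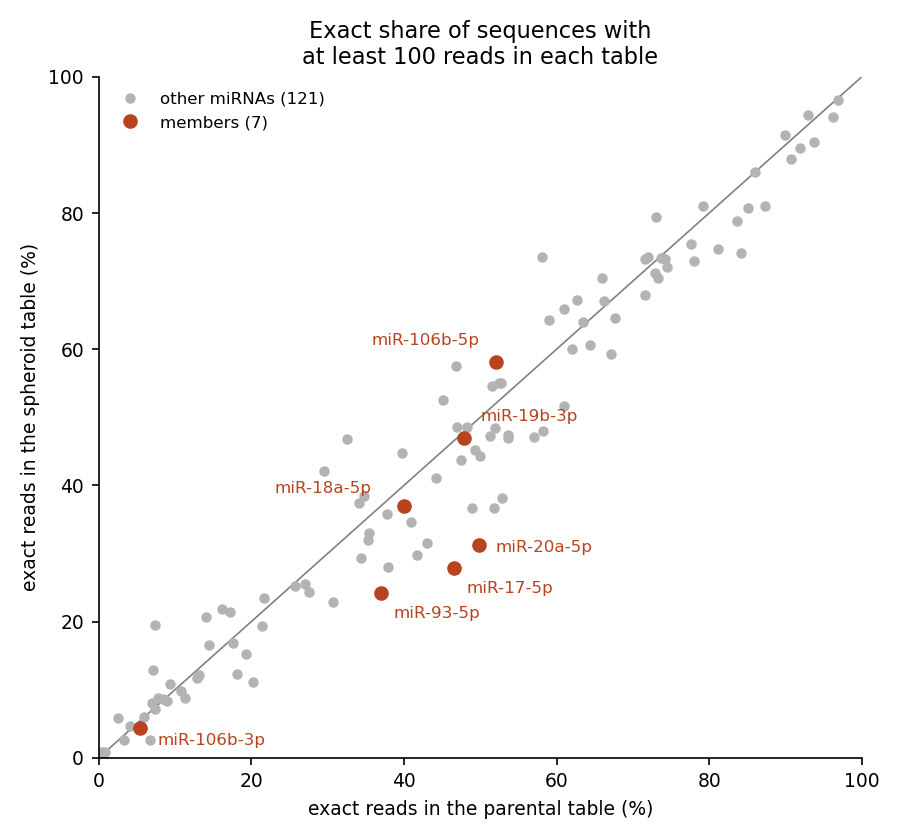
Exact reads in % of all reads of a sequence, spheroid table (vertical axis) against parental table (horizontal axis), for the 128 sequences with at least 100 reads in each table. Red points are the 7 members among them, grey points the other 121, and the line marks equal shares. The points of miR-17-5p, miR-20a-5p and miR-93-5p lie well below the line, and miR-106b-5p lies above it.

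Counted apart, exact and variant reads of the same miRNA gave different folds. Exact reads of miR-17-5p were at 266 rpm in spheroid cells and 448 rpm in parental cells, a fold of 0.593 (0.505 to 0.698), whereas its variant reads were at 687 rpm in spheroid cells and 515 rpm in parental cells, a fold of 1.33 (1.17 to 1.53). The fold of 0.989 over all miR-17-5p reads thus joined a lower exact form and higher variants. Exact reads of miR-20a-5p had a fold of 0.439 (0.363 to 0.530) and its variants 0.962 (0.818 to 1.14). For miR-93-5p the exact reads had a fold of 0.470 (0.425 to 0.521) and the variants 0.868 (0.809 to 0.930). For miR-106b-5p the order was the other way, with 0.789 (0.672 to 0.927) for exact reads and 0.617 (0.519 to 0.736) for variants. The miR-18a-5p sequence was lower in both forms, with folds of 0.395 (0.258 to 0.606) and 0.448 (0.321 to 0.627), and miR-19b-3p was near 1 in both, at 0.964 and 0.996.

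**Figure D5:**
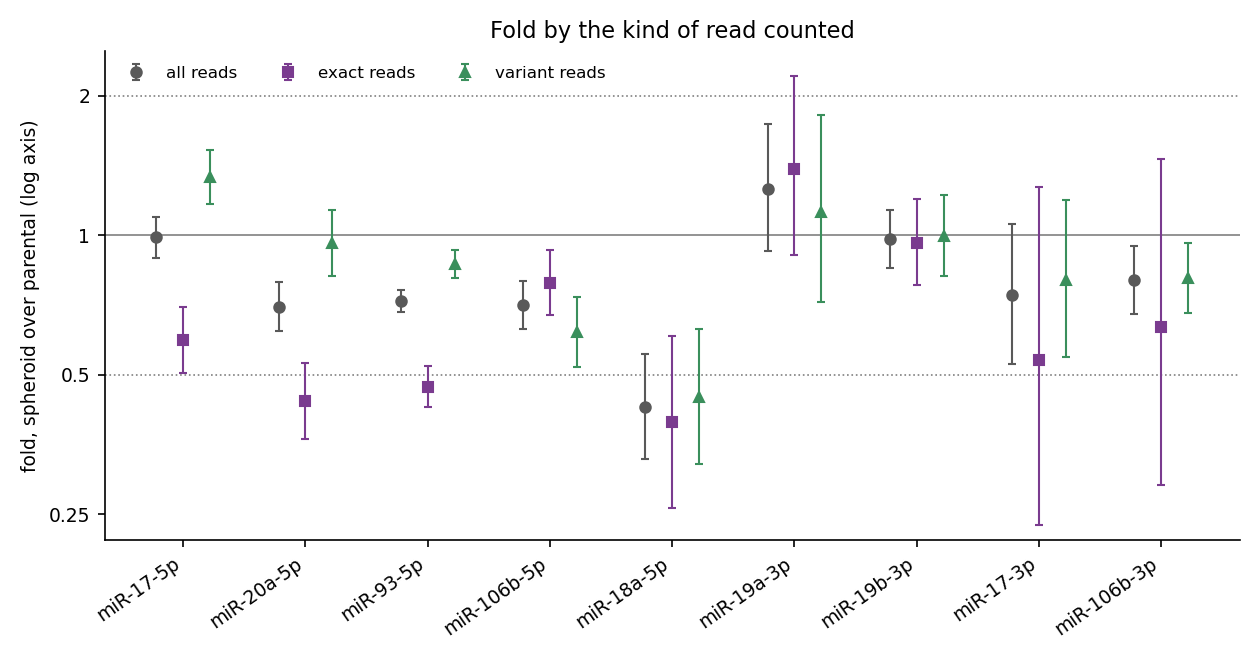
Fold, spheroid over parental and relative to the table totals, of the 9 members with at least 100 reads, counted over all reads (circles), exact reads (squares) and variant reads (triangles). The axis is logarithmic and bars are 95% counting intervals. For miR-17-5p, miR-20a-5p and miR-93-5p the exact reads lie below the variant reads without overlap, and for miR-18a-5p both lie near or below 0.5.

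The choice of reads therefore changed which members passed the threshold. With exact reads alone, scaled to their own totals, miR-20a-5p joined miR-18a-5p among the calls at a fold of 0.468 (adjusted p = 1.33e-15, Kal's Z-test), and miR-93-5p stood at the edge of the threshold with 0.502. The ratio of miR-106b-5p to miR-17-5p, 0.714 over all reads, was 1.33 (1.06 to 1.67) over exact reads. Likewise the ratio of miR-19b-3p to miR-17-5p was 0.991 over all reads and 1.62 (1.24 to 2.13) over exact reads, and that of miR-19a-3p was 1.27 and 2.34 (1.47 to 3.83).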

How the data were processed

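The authors trimmed the reads of TruSeq small RNA libraries with CLC Genomics Workbench 7.0, removed those under 17 or over 27 bases, matched them to miRBase 19 and to Ensembl noncoding RNA (GRCh37, release 57), and deposited whole-number read counts per mature sequence, without normalization, in 1 table per condition. Other columns count exact mature reads and reads marked as unique. The tables had 0 columns per sample, so the test planned for samples was not used. Totals were 1553014 reads (spheroid) and 539798 (parental), and a floor of 3 reads equals 1.93 rpm and 5.56 rpm in that order of tables.

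The tables were joined by sequence. Arms and stem-loop sequences came from RefSeq, and places from GENCODE 44 mapped to GRCh37, or for chromosome 13 from an exact match of the RefSeq stem-loop. Folds, Kal's Z-test, Fisher's exact test, Benjamini-Hochberg adjustment, and Clopper-Pearson and conditional exact intervals were computed with scipy 1.17.1, numpy 2.4.6 and pandas 2.3.3 under Python 3.11.15. Plots were drawn with matplotlib 3.10.9. Adjusted p-values of ratios, arms and exact shares were taken over all sequences or stem-loops, not over the members as first planned. The steps were tested on simulated data. Members, lists and tests were chosen with earlier results of these data known.

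Each sequence of the 10 stem-loops was accounted for, those with at least 100 reads singly. Outside the members, the cluster mates were named, and marker lists were taken for basal, luminal, blood, endothelial, muscle, and fibroblast and mural cells. Alternatives were the scale (reads left after trimming, totals that leave out the 5 most abundant sequences, and in R 4.3.3 the TMM factors of edgeR 4.0.16 or median-of-ratios factors of DESeq2 1.42.0), the reads counted, filters at 10 and 100 reads, other tests, unadjusted p and thinning. Scaling to miR-19a-3p, and adjusting exact shares over sequences with at least 100 reads in each table, were added after seeing the data, as were the folds of exact and variant reads apart.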

Additional observations from a re-analysis of the deposited data

How the results depend on the processing

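No paired analysis was possible because the tables carry no replicate columns, and for the same reason no replicate could be left out. Depth limits the low members, since 6 of 15 had under 100 reads. Under TMM or median-of-ratios factors, totals without the 5 most abundant sequences, scaling to miR-19a-3p, unique reads, filters at 10 or 100 reads, Fisher's exact test and unadjusted p, the count stayed at 0 members higher and 1 lower (miR-18a-5p). Scaling to the reads left after trimming, which include RNA outside miRBase, multiplied each fold by 2.21. The parental table holds far fewer reads than the study reports as matched to miRBase for parental cells, while the spheroid table holds nearly all of its own. The counts and totals of this scale therefore do not belong together, and its values show neither a direction nor the loss of a call. As computed, it gave 4 members higher and 0 lower, with miR-17-5p at 2.19, miR-19b-3p at 2.17, the miR-19 family at 2.27 and the miR-18 family at 0.943, which was no longer called. Over all sequences that scale gave 140 higher and 5 lower calls, scaling to miR-19a-3p gave 13 and 63, exact reads gave 18 and 24, and the table totals gave 21 and 39. With exact reads 2 members were lower, the ratio to miR-17-5p was 1.33 for miR-106b-5p, 1.62 for miR-19b-3p, 2.34 for miR-19a-3p and 0.666 for miR-18a-5p (no longer called), and the mir-18a arm difference of 7.41 percentage points was not called. Thinning the spheroid reads to the parental depth gave 1 member higher, miR-18a-3p. With an assumed coefficient of variation of 0.2 there were 0 members lower, and 13 higher and 8 lower calls over all sequences. The ratios to miR-17-5p of 0.728 (miR-93-5p), 0.714 (miR-106b-5p), 0.709 (miR-20a-5p) and 0.431 (miR-18a-5p) were then not called either. The mir-18a arms could not be given a value with that error, because 1 count was 0. The lower exact shares of miR-17-5p, miR-20a-5p and miR-93-5p were called after thinning and with adjustment over the 128 sequences with at least 100 reads in each table. No assumed coefficient of variation was applied to the exact shares, so whether these calls would be kept under one was not tested. For the folds, a coefficient of 0.4 left 0 calls over all sequences, and 0 members lower. The cause of these differences was not tested, beyond the change in scale or in the reads counted that each setting makes.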

Other observations

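The makeup of the miR-17 seed family depended on the form of read counted. Over exact reads alone, miR-106b-5p held 24.4% (22.6 to 26.4) of the family in spheroid cells and 16.8% (14.8 to 18.9) in parental cells, while over all reads it held 12.6% and 13.6%. The share of miR-93-5p in exact reads was 43.3% (41.1 to 45.5) in spheroid cells and 49.8% (47.1 to 52.5) in parental cells, and that of miR-20a-5p 12.3% and 15.2%. Summed over the 6 sequences, exact reads had a fold of 0.541 (0.505 to 0.580) and variant reads 0.921 (0.873 to 0.973), beside 0.937 for the exact reads of all sequences together.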
